A study of Caenorhabditis elegans with 4 samples.

Results

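Chromosome V of Caenorhabditis elegans held 1253 of the 5803 regions called for the transcription factor PQM-1 in third-stage larvae, or 21.6% of the list. As read from the q-values, the whole list was 45.1% of 12873 regions that the peak caller PeakSeq tested. The regions on V are all those that the deposited list places on V, so no measured value was used to choose them. The worms were hermaphrodites of strain OP201, which carries the unc119(ed3) allele and, with a copy of unc119, the integrated array wgIs201, grown at 20 °C to the L3 stage and fixed with 2% formaldehyde. That array is an added copy of pqm-1, fused to the tags TY1, EGFP and FLAG and obtained by bombardment, and all libraries come from this strain, so there is no strain without the tag among them. The 4 libraries were 2 of chromatin precipitated with a goat antibody against EGFP and 2 of input DNA, which the authors reduced to 1 combined list. No value per replicate was analysed here, and whole worms were used, so the tissue in which a region was bound is not known.

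PQM-1 is a C2H2 zinc finger protein, best known for its part in insulin-like signalling, where it binds the DAF-16-associated element, a GATA-like motif near genes of growth, metabolism and stress resistance. In the intestine its nuclear localization is opposed to that of the FOXO factor DAF-16. Chromosome V is the longest chromosome of the worm, and its arms carry large families of chemoreceptor and nuclear hormone receptor genes. As on the other autosomes, the arms recombine more than the centre. Positions are on WormBase WS180. No genome or annotation of that build was used here, so the genes and sequences at the regions are not given.

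The regions on V were densest in the middle of the chromosome. The listed coordinates span 20.9 Mb, which was divided into 3 equal parts of 6.97 Mb, called left arm, centre and right arm below, and each region was placed by its midpoint. The left arm held 354 regions, or 50.8 per Mb. The centre held 564, or 80.9 per Mb, and the right arm 335, or 48.1 per Mb. The density in the centre was 1.64 times that of both arms together, with a 95% interval of 1.46 to 1.83, and that of the left arm was 1.06 times that of the right, with an interval of 0.91 to 1.23 that includes 1. These are exact binomial intervals, which cover counting error and treat regions as independent. Neighbouring regions are not, so the intervals are too narrow. Regions and bins are not replicates, so the values of V are set beside those of I, II, III and IV without a test, and no difference below is shown to be particular to V.

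In bins of about 1 Mb, the left arm held 50.8 ± 22.8 regions per Mb (SD, n = 7 bins), the centre 80.9 ± 19.8 (SD, n = 7 bins) and the right arm 48.1 ± 9.85 (SD, n = 7 bins). The left arm had the widest spread. Its lowest bin, V 3982212 to 4977764, held 25 regions, the fewest on the chromosome, while its last bin, V 5973318 to 6968870, held 92. The bin next to it, V 6968871 to 7964423, was the lowest of the centre, with 43 regions. The high and the low bin thus lay side by side across the border of left arm and centre, and the density did not rise evenly towards the middle. Without its last bin, the left arm held 43.9 ± 14.9 regions per Mb (SD, n = 6 bins).

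The highest bin of the centre was V 9955530 to 10951082, with 109 regions, above the highest count of 106 in the 61 bins of the other autosomes. The other 5 bins of the centre held between 75 and 88. On the right arm the counts ran from 35, at V 17919954 to 18915506, to 62, at V 14933295 to 15928847. Arms and centre overlapped, since the highest bin of each arm held more regions than the lowest bin of the centre. The shortest stretch holding 50% of the regions, 627 of them, ran from V 6210058 to 13752022. It spanned 7.54 Mb, or 36.1% of the length, and reached from the end of the left arm over most of the centre.

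**Figure D1:**
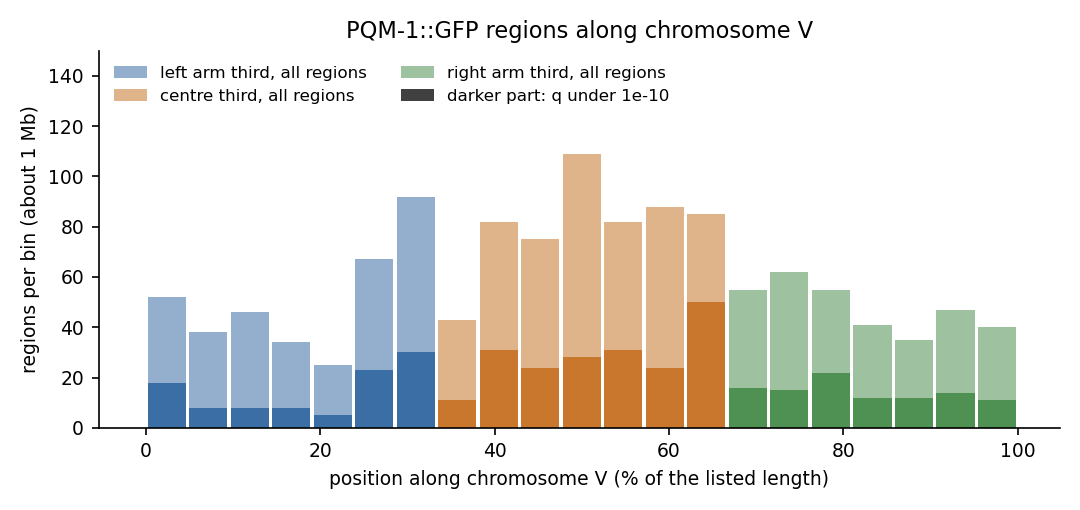
Regions on chromosome V in 21 bins of about 1 Mb, by position in % of the listed length; light bars show all regions, the dark part those with q under 1e-10, and colours the 3 parts. The highest bin held 109 regions and the lowest 25, and a bin of 92 lies next to one of 43 at the border of left arm and centre.

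The profile of V was close to that of IV. The density over the whole chromosome was 59.9 regions per Mb on V, 59.99 on IV, 61.4 on III, 56.0 on II and 36.0 on I. The ratio of V to the other 4 autosomes together was 1.12, with an interval of 1.05 to 1.20, but V lay inside the range of the single chromosomes. In the centre V held 80.9 per Mb, between 69.7 on III and 81.4 on IV, with 80.1 on II and 49.97 on I. The ratio of centre to arms was 1.64 on V, with 1.22 on III as the lowest and 1.82 on II as the highest of the other autosomes (I 1.72, IV 1.65). The left and right arms differed most on II, with a ratio of 0.72 and an interval of 0.59 to 0.87, and on I, with 1.34 and 1.05 to 1.70. On III, IV and V the interval of this ratio included 1. With each autosome cut into 10 steps of equal length, the density on V was 45.9 per Mb in step 1 and 36.8 in step 2, peaked at 91.4 in step 6, and was 37.8 in step 9 and 43.0 in step 10.

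**Figure D2:**
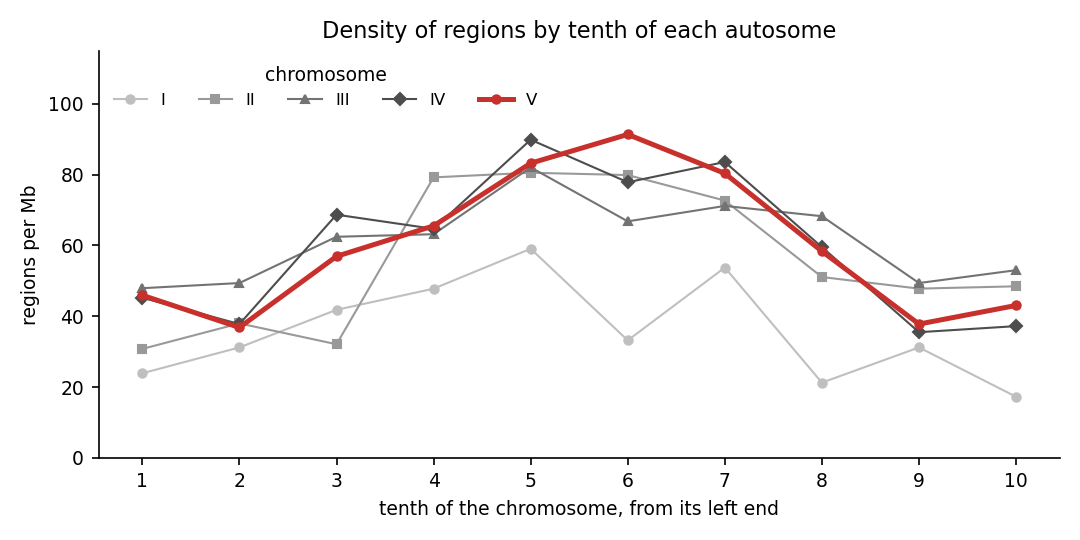
Regions per Mb in 10 steps of equal length along each of the 5 autosomes, counted from the left end, with V in red. V peaks in step 6 at 91.4 per Mb and has 36.8 in step 2 and 37.8 in step 9.

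Regions on V were narrow and of much the same width in all parts. The median width was 377 bp, and the middle 50% of regions lay between 298 and 507 bp. It was 370.5 bp on the left arm (95% interval of the median 355 to 388 bp), 380 bp in the centre (366 to 395 bp) and 371 bp on the right arm (355 to 393 bp). The intervals overlapped. The other 4 autosomes together had a median of 380 bp (374 to 386 bp). In all, the regions covered 575.5 kb, or 2.75% of V, with 2.42% of the left arm, 3.79% of the centre and 2.05% of the right arm.

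Regions of 1000 bp or more, called broad here, numbered 59 on V, or 4.71%, against 4.6% of the whole list. There were 21 on the left arm (5.93%, 95% interval 3.71% to 8.93%), 28 in the centre (4.96%, 3.32% to 7.09%) and 10 on the right arm (2.99%, 1.44% to 5.42%). Intervals overlapped between the parts of V. On the left arms of the other autosomes 2.31% of regions were broad (1.43% to 3.50%), an interval below that of the left arm of V. That pool includes II with 0 broad regions on its left arm, and the intervals of I (1.33% to 7.66%), III (0.88% to 5.13%) and IV (1.35% to 5.51%) each overlapped that of V. Of the 21 broad regions on the left arm, 11 lay in its last bin, and the 6 other bins held 10 among 262 regions.

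The only value the authors give for a region is its q-value, which PeakSeq derives from the ChIP tags in the region and those of the scaled control. On V it ran from 3.85e-145 to 0.00975, with a median of 7.17e-07. The left arm, centre and right arm had medians of 5.03e-07, 4.55e-07 and 1.44e-06. A q-value under 1e-10 was found for 401 regions on V, or 32.0% (95% interval 29.4% to 34.7%), against 29.3% of the whole list. They were 100 regions on the left arm (28.2%, 23.6% to 33.3%), 199 in the centre (35.3%, 31.3% to 39.4%) and 102 on the right arm (30.4%, 25.6% to 35.7%). The centre was thus highest, but its interval overlapped those of both arms. The share was 24.3% on I, 26.4% on II, 26.3% on III and 32.2% on IV. A q-value under 1e-20 was reached by 137 regions on V, or 10.9%, against 10.4% of the whole list.

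The last bin of the centre, V 12942189 to 13937741, had the largest share of such regions. There 50 of 85 regions, or 58.8%, had a q-value under 1e-10. In the other 20 bins of V the share ran from 17.4% to 40.0%, and in the 61 bins of the other autosomes from 8% to 50%. This bin was singled out after its value was seen.

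Whole tag numbers were recovered from the q-values, and each of the 1253 regions on V had exactly 1 solution. Medians on V were 81 ChIP tags and 25 scaled control tags per region, and 90% of regions had between 35 and 224 of the former. The ratio of these tag numbers had a median of 3.08 on V, with a 95% interval of 3.00 to 3.16. It was 3.07 on the left arm (2.91 to 3.19), 3.09 in the centre (2.94 to 3.22) and 3.10 on the right arm (2.96 to 3.28), so the typical excess of ChIP tags was alike in the 3 parts within these intervals. Among the other autosomes the median ran from 2.45 on I over 2.78 (II) and 2.88 (III) to 3.17 on IV, and was 2.86 (2.81 to 2.91) over these 4 together.

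A ratio of at least 5 was found in 171 regions of V, or 13.6% (95% interval 11.8% to 15.7%), against 11.3% of the whole list. They were 47 on the left arm, 76 in the centre and 48 on the right arm. The right arm, which had the fewest regions, held about as many of them as the left. The share was 5.72% on I, 9.35% on II, 8.99% on III and 16.8% on IV, so that V stood second among the autosomes. A ratio under 2 was found in 74 regions on V, or 5.91%, against 10.12% on the other autosomes together. By chromosome this share was 21.03% on I, 9.81% on II, 10.3% on III and 4.58% on IV, so V lay between II and IV.

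The level of ChIP and of control was compared in regions of 300 to 500 bp, where widths are alike. The median on V was 223.4 ChIP tags per kb (95% interval 217.5 to 229.6, 612 regions) and 224.7 on the other autosomes (221.9 to 228.8, 1597 regions). The scaled control had a median of 64.7 tags per kb on V (62.5 to 66.5) and 71.0 on the others (69.7 to 72.7). By chromosome the control was 85.7 on I, 72.9 on II, 70.6 on III and 61.9 on IV, so V lay between III and IV. The higher ratios on V thus went with a lower control, at a ChIP level whose intervals overlapped. The scaling of the control is not known, and whether it varied by chromosome cannot be told apart from unequal input coverage.

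Within V, the control of these regions was 65.1 tags per kb on the left arm (60.9 to 67.6, 178 regions), 66.7 in the centre (63.7 to 70.3, 267 regions) and 59.8 on the right arm (56.3 to 63.3, 167 regions). The right arm was lowest, and its interval lay just below that of the centre but overlapped that of the left arm. With regions of all widths, the right arm (56.8 to 61.1) lay below the centre (64.1 to 68.6) and just below the left arm (61.2 to 66.3). With q under 0.001 the right arm (55.7 to 62.8) narrowly overlapped the centre (62.7 to 68.6), so the gap depends on the regions used. The ChIP level was 211.2 tags per kb on the left arm (203.1 to 225.1), 233.6 in the centre (222.8 to 244.4) and 220.8 on the right arm (208.4 to 234.4). The intervals of the centre and the left arm overlapped for the control and for the ChIP level. Among the best 1000 regions of the list their controls were 55.6 tags per kb on the left arm (51.7 to 62.6) and 55.3 in the centre (52.6 to 57.5), so their order is not resolved. The part of the control and of mappability in the count of regions was not tested.

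**Figure D3:**
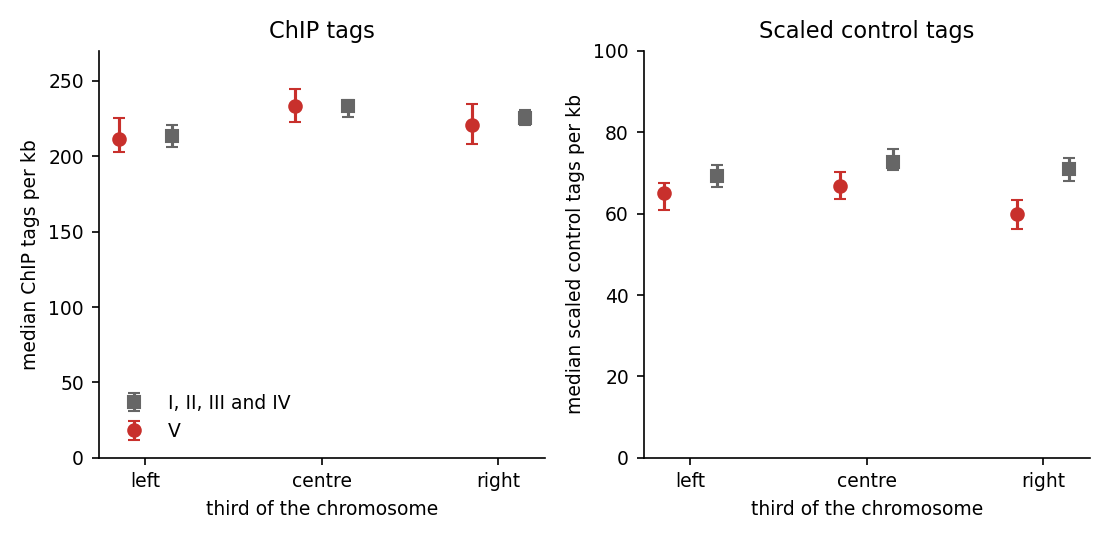
Median ChIP tags and median scaled control tags per kb in regions of 300 to 500 bp, by part, for V (red) and for I, II, III and IV together (grey); bars are 95% intervals of the median. ChIP levels overlap between V and the others in each part. The control on the right arm is 59.8 tags per kb on V and 71.0 on the others together, but 60.2 on IV alone (not drawn). In the centre it is 66.7 on V and 72.7 on the others together, but 61.9 on IV alone.

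The 10 lowest q-values of V lay in the left arm (5 regions) and the centre (5 regions), and none on the right arm. The lowest, 3.85e-145, belonged to a region of 4711 bp at V 723663 to 728373, near the left end. It held 1103 ChIP tags and 205 scaled control tags, a ratio of 5.38 with an interval of 4.63 to 6.28. It was also the widest region of V. Followed at gaps of 207 to 755 bp by regions of 523, 998 and 670 bp, it headed a run of 4 regions that covered 84.5% of 8164 bp. The final one, V 731157 to 731826, had a ratio of 5.57 (4.05 to 7.79), alike within the intervals, and those between had 3.59 and 3.31.

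The second lowest q-value, 1.97e-90, was at V 9076487 to 9080499 in the centre, where 828 ChIP tags stood against 194 scaled control tags over 4013 bp, a ratio of 4.27 (3.65 to 5.02). It lay 242 bp after another broad region, V 9073689 to 9076244, of 2556 bp with a ratio of 3.98 (3.25 to 4.89), rank 5 on V by width. A further region of 472 bp followed, and the 3 together covered 86.1% of 8174 bp. Each of these runs thus covered over 80% of about 8 kb.

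Regions with no neighbour within 2 kb also reached very low q-values. V 1459335 to 1462307, on the left arm, was 2973 bp wide and had a ratio of 5.15 (4.18 to 6.39), from 556 ChIP tags and a scaled control of 108. V 13462596 to 13463367, in the centre, held 472 against 57 tags in only 772 bp. Its ratio was 8.28 (6.28 to 11.1), and its 611 ChIP tags per kb compare with 187 in the region of 2973 bp. V 6225933 to 6230052, rank 5 on V by q-value, was different again, with 966 ChIP tags over 4120 bp but 336 scaled control tags. Its ratio of 2.88 (2.54 to 3.26) was below the median of V. Its 81.6 control tags per kb compare with 43.5 in the widest region. Its 4 cluster neighbours had ratios of 1.52 to 1.88, and that of 1.52, at V 6222580 to 6223579, was the lowest on V among regions of 100 bp or more.

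The other 5 of the 10 were compact, between 474 and 749 bp. V 8768400 to 8768873 in the centre held 279 ChIP against 18 scaled control tags, a ratio of 15.5 (9.63 to 26.5), the highest on V among regions of 100 bp or more. V 6614318 to 6614879, on the left arm, held 304 against 23 tags, a ratio of 13.2 (8.65 to 21.2). V 8651182 to 8651728 had 332 against 34 tags and a ratio of 9.76 (6.85 to 14.3). V 6412840 to 6413588 had 299 against 32 tags and a ratio of 9.34 (6.48 to 13.9). V 11572708 to 11573377 had 333 against 49 tags and a ratio of 6.80 (5.02 to 9.37). All 5 lay in clusters as defined below, and the intervals of the first 4 overlap, so their order is not resolved.

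On the right arm the lowest q-value was 1.51e-50, at V 17659132 to 17659876, rank 50 of the list. This region of 745 bp held 288 ChIP against 32 scaled control tags, a ratio of 9 (6.23 to 13.4). The next, V 17721629 to 17722170, had 234 against 24 tags and a ratio of 9.75 (6.39 to 15.5), and V 18346026 to 18346453 had 247 against 32 tags and a ratio of 7.72 (5.33 to 11.5). Their ratios reached those of the compact regions elsewhere on V. The widest region of the right arm was 1554 bp, against 4711 bp on the left arm and 4013 bp in the centre. The right arm also held none of the compact regions among the 10 lowest q-values of V, and the part of width in this was not tested. Its highest ratio among regions of 100 bp or more was 11 (6.87 to 18.6), at V 15298553 to 15299021, rank 3 on V. Next on V by ratio, at 9.96 and 9.95, were V 10693697 to 10694142 in the centre and V 18577265 to 18577847 on the right arm.

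Across the 1253 regions, width and -log10 q had a Spearman's rho of 0.67, and width and ratio one of 0.24. Width, ratio and q share their tags, so these are descriptions. Split by width into 4 groups of nearly equal size, the share with q under 1e-10 went from 0.318% in the narrowest (2 to 298 bp) to 16.3%, 49.5% and 62.0% in the widest (507 to 4711 bp). The median ratio was 2.69, 3.00, 3.67 and 3.36 in the same order, so it was highest in the group of 377 to 507 bp and not in the widest. The 59 broad regions had medians of 259 ChIP tags and 73 scaled control tags, and ratios of 1.52 to 6.06, and none reached the ratios of the compact regions above.

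**Figure D4:**
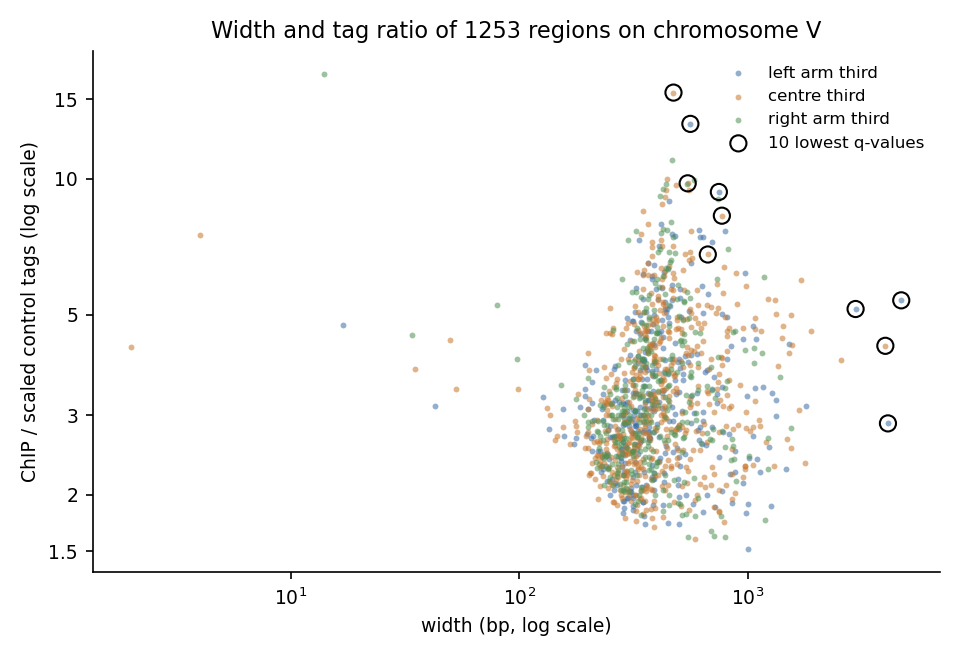
Width in bp and ratio of ChIP to scaled control tags of the 1253 regions of V, both on log scales, coloured by part, with the 10 lowest q-values ringed. The ringed regions fall into 4 broad ones with ratios of 2.88 to 5.38 and 6 of 474 to 772 bp with ratios of 6.80 to 15.5.

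The weakest regions stand at the limit of the list. The highest q-value on V, 0.00975, was at V 10937432 to 10937857, with 59 ChIP against 33 scaled control tags, a ratio of 1.79 (1.15 to 2.83). After the region at V 6222580, the lowest ratios were 1.59 at V 8129904 to 8130491, 1.61 at V 19892928 to 19893721, 1.61 at V 14696788 to 14697336 and 1.62 at V 20772113 to 20772826. Of these 5, 3 lay on the right arm. Over all its regions, however, 5.07% had a ratio under 2, against 7.34% on the left arm and 5.50% in the centre. There were 12 regions under 100 bp on V, where the medians were 19.5 ChIP tags and 4.5 scaled control tags, and none ranked above 4025 in the list. The narrowest was 2 bp, at V 13531786 to 13531787, with 17 against 4 tags. The first region of the chromosome, V 8677 to 9063, had a ratio of 2.16 (1.45 to 3.28), and the last, V 20906421 to 20906612, had 27 against 9 tags, a ratio of 3.00 (1.37 to 7.25). Their q-values were 0.000145 and 0.00475, well above the median of V.

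The share of regions that lay in clusters was highest in the centre of V. A cluster is a run of 3 or more regions with at most 2 kb from the end of a region to the start of the next. V had 90 clusters, with 22 on the left arm, 50 in the centre and 18 on the right arm. They held 330 regions, or 26.3% (95% interval 23.9% to 28.9%), against 24.5% of the whole list. The share was 23.2% on the left arm (18.9% to 27.9%), 32.8% in the centre (28.9% to 36.8%) and 18.8% on the right arm (14.8% to 23.4%), and the interval of the centre lay above both others. A denser part brings regions closer together by itself, and that part of the difference was not separated. On the left arms of the other autosomes 14.5% were in clusters (12.3% to 16.9%), below the interval of the left arm of V. Chromosomes I (12.0%) and II (6.95%) lowered that pooled share, and the intervals of III (13.7% to 23.7%) and IV (13.3% to 22.0%) overlapped that of V. In the centres it was 28.4% and on the right arms 22.8%, with intervals that overlapped those of V.

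Most clusters were small, with 54 of 3 regions, 19 of 4 and 17 of 5 or more. The largest held 7 regions, and there were 2 of this size. On the other autosomes the largest cluster held 5 regions on I, 8 on II, 6 on III and 13 on IV. V 5762227 to 5770431, on the left arm, had 7 regions in 8205 bp, of which they covered 32.7%. Its regions had ratios from 2.70 to 4.33, and 4 of the 7 had q-values from 2.49e-21 to 1.53e-10. V 6239890 to 6249048, also on the left arm, had 7 regions in 9159 bp, with ratios from 1.98 to 3.21 and a lowest q-value of 8.09e-11. Its regions were thus all of moderate or low ratio.

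The next 3 held 6 regions each. At V 18572420 to 18578789, on the right arm, 4 regions had ratios of 2.14 to 2.67, and the other 2, next to each other, had 9.95 and 5.35. At V 13043071 to 13049460, in the centre, the ratios ran from 2.21 to 6.88, and the first region, of 558 bp, had the lowest q-value, 5.69e-28. At V 12933008 to 12942392, also in the centre, 3 neighbours had ratios of 5.46, 5.76 and 7.10 with overlapping intervals, and the other 3 had 2.26 to 3.42. Strong and weak regions were therefore found side by side within the same cluster.

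Regions inside clusters were wider than those outside. The median width was 427 bp inside (95% interval 410 to 452 bp) and 361 bp outside (353 to 372 bp). The median ratio was 3.32 inside (3.16 to 3.59) and 3.00 outside (2.92 to 3.10). A q-value under 1e-10 was found for 44.2% inside (38.8% to 49.8%) and 27.6% outside (24.8% to 30.6%). The other autosomes had the same order, with median widths of 439 and 368 bp, median ratios of 3.00 and 2.80, and shares of 37.3% and 25.05%. Between neighbours on V at most 2 kb apart (389 pairs), the ratios had a Spearman's rho of 0.20. At 2 to 10 kb (358 pairs) it was 0.050 and over 10 kb (505 pairs) 0.12, without intervals, so no trend with distance is resolved on V. On the other autosomes it was 0.19, 0.15 and 0.12 in the same order. The control per kb on V had a rho of 0.41, 0.25 and 0.099 in that order. The pairs come from the same libraries and the same scaled control, and these values are descriptions.

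In windows of 100 kb, the median held 4 regions on the left arm, 8 in the centre and 4 on the right arm. Of 209 full windows on V, 40 held 10 or more regions (19.1%), with 25 of them in the centre. On the other autosomes together this share was 13.5%, with 2.67% on I, 17.1% on II, 16.8% on III and 17.2% on IV. Only 7 windows of V held none (3.35%), against 38 of 613 (6.20%) on the other autosomes. Of these 38, 20 were on I, and the share was 3.29% on II, 4.38% on III and 4.02% on IV. The highest count in a window was 13 on I, 19 on II, 18 on III and 23 on IV. The densest window of V, at 6200001 to 6300000, held 22 regions, which covered 15.8% of it, and 19 of these lay in clusters. Next came V 13700001 to 13800000 with 19 regions, of which 8 had a q-value under 1e-10, and V 6400001 to 6500000 with 18, also with 8. The first and last of these lay in a stretch singled out after its values were seen, V 6200001 to 6700000, which held 69 regions (138 per Mb), 9 of them broad, and 3 of the 10 lowest q-values of V. This stretch is 2.39% of the length of V and held 5.51% of its regions. It belongs to the left arm by position, close to the border at 6968871.

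Long stretches without a region were found in all parts. Stretches of 50 kb or more numbered 111 on V and summed to 8.72 Mb, or 41.7% of its length. They took up 45.5% of the left arm (38 stretches), 28.4% of the centre (27 stretches) and 51.2% of the right arm (46 stretches), each counted where its middle lay. On the other autosomes these shares were 49.6%, 32.8% and 54.5%, and over whole chromosomes 59.3% on I, 43.3% on II, 40.4% on III and 40.2% on IV. The median distance between neighbouring regions was 8.10 kb on the left arm, 4.53 kb in the centre and 7.82 kb on the right arm of V. A stretch without a listed region is one where no region passed the caller's limit, and the tags in it were not analysed here.

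The longest stretch on V ran from 2327535 to 2565551 on the left arm and was 238.0 kb long. The region before it was strong, with 253 ChIP against 34 scaled control tags, a ratio of 7.44, and that after it was weak, with a ratio of 2.45. The second, 17978538 to 18157733 on the right arm, was 179.2 kb long and lay between 2 regions with ratios of 7.67 and 6.00. The third, 7198752 to 7363251, was in the centre, 164.5 kb long, in the low bin next to the left arm. Ranks 4 and 5, 19217461 to 19376985 on the right arm and 4187395 to 4346847 on the left arm, were each 159.5 kb long. That of the left arm lay in the bin with the fewest regions and was bordered by a broad region of 1478 bp and one with a ratio of 1.96. Long stretches thus ended at strong and at weak regions alike.

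**Figure D5:**
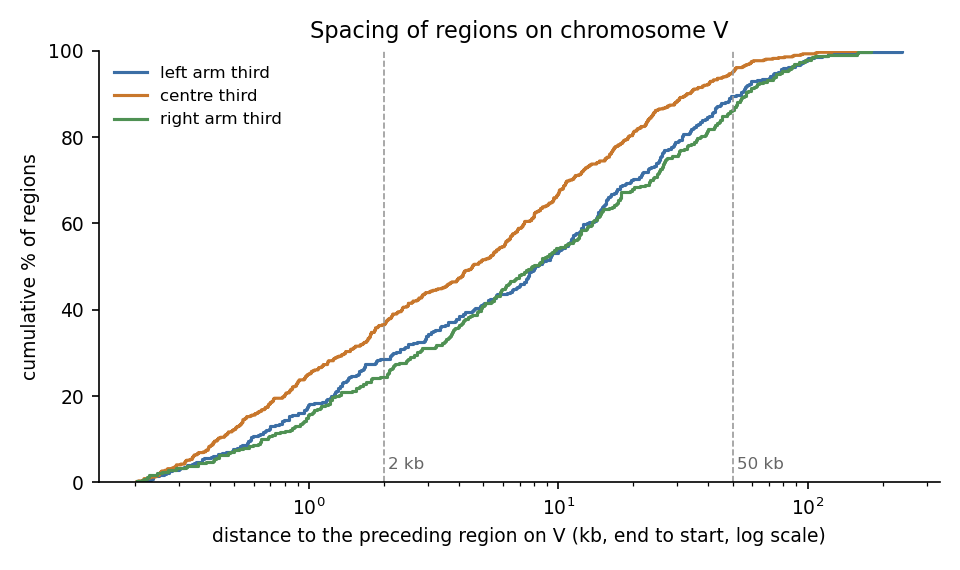
Cumulative share of regions on V by the distance to the preceding region in kb (log scale), for each part; dashed lines mark 2 kb (the limit within clusters) and 50 kb (the limit for long stretches). The curve of the centre lies to the left, with a median of 4.53 kb, against 8.10 and 7.82 kb for the arms.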

How the data were processed

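Chromatin bound by PQM-1::GFP and input DNA were sequenced from L3 worms, with 2 libraries each. The authors deposited 1 combined list of regions. Per the file headers it is on WormBase WS180 and names PeakSeq as its source, and a q-value is the single measurement the authors deposited per region. The aligner, the depth of the libraries, the version of PeakSeq and the way the replicates were joined are not stated in these sources.

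Tag numbers were recovered from the q-values, taking the row number as the rank. Each q-value times its rank, divided by the number of regions tested, was compared with the lower binomial tail at a chance of 0.5. With 12873 tested regions, 200 of 200 sampled regions matched, and with the next best number 1 did. The pair of whole tag numbers was then searched for totals up to 3000, and where that failed up to 20000 (relative tolerance 1e-11 on the natural log). Of 4749 simulated regions, 4748 gave back the pair they were made with and 0 gave another, but the simulation used this formula and does not test what the tags are. The caller scales and rounds the control.

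Chromosome length is the largest listed coordinate. Ratio intervals are exact Clopper-Pearson intervals of the ChIP share, intervals of shares are exact binomial and those of medians are exact binomial order statistics, all at 95%. They cover counting error only. Those of the ratio of a region take the scaled and rounded control as a count, so their 95% level is approximate. The length in stretches of 50 kb or more has no such interval, and the spread between parts was used for it below. Regions named by position were chosen by rule: the 10 lowest q-values on V and the 3 lowest in each part, the 5 highest and 5 lowest ratios, the 5 widest, the 5 largest clusters and 5 longest stretches, the 3 densest windows, extreme bins and both ends. The members, rules and lists were chosen with earlier results of these data known. Python 3.11.15, SciPy 1.17.1 and pandas 2.3.3 were used.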

Additional observations from a re-analysis of the deposited data

How the results depend on the processing

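No paired analysis was possible because the list used here joins both replicates and has no value for either, so no setting without a replicate was run. Of 50 alternatives for 11 values, 29 stayed within the interval, or range, of the reported value. For the length in stretches of 50 kb or more, a range of 29.8% to 53.6% took the place of an interval. This range is the mean ± SD of the left arm, centre and right arm, so it reflects their differences and not counting error. The 48.6% found with q under 0.001 lay inside it and is among the 29. With the best 1000 regions of the list, the density of V against the other autosomes was 1.28 and the ratio of centre to arms 2.27. The ratio of left to right arm was 1.24 (0.84 to 1.85) and the median width 558 bp. In the same set the share in clusters was 14.0%, the length in stretches of 50 kb or more 89.9% and the median ratio of tags 5.28. The control in this set was 55.6, 55.3 and 52.2 tags per kb on the left arm, in the centre and on the right arm, with intervals that overlapped. With q under 0.001, the median width was 404 bp, the share in clusters 22.7% and the median ratio 3.34. With the middle 50% of the length as the centre, the ratio of centre to arms was 1.83. That of left to right arm was then 0.91, with an interval of 0.75 to 1.11 that includes 1. With other limits, the share with q under 1e-5 was 57.1% and under 1e-20 10.9%, the share in clusters was 13.9% at 1 kb and 46.2% at 5 kb, and the length in stretches was 62.5% from 30 kb and 11.5% from 100 kb. Summed tags gave a ratio of 3.401. The cause of these shifts was not tested, beyond the change of limit itself. The effect of depth was not tested. The narrowest regions rest on few tags.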
